A study of Mus musculus with 6 samples.

Results

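The genes of nucleocytoplasmic transport were examined in mouse G1E-ER4 cells that differentiated in the presence of a peptide aimed at CHD4. The protein-coding genes whose symbols name nucleoporins (Nup, Nupl), importins (Ipo), exportins (Xpo), karyopherins (Kpna, Kpnb) or transportins (Tnpo) were taken, together with Tpr, Seh1l, Rae1, Ndc1, Pom121 and Aaas. They came to 52 of the 48709 genes of the count table, 29 nucleoporins and 23 transport receptors. Of these, 27 nucleoporins and 23 receptors passed the filter on low counts. Nup62cl had 0 counts in every library, and Nup210l, a relative of Nup210, had 4 to 8 counts per library in the CTRL group and 0 to 5 in the CHD4-APR group.

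G1E-ER4 cells, an immature erythroblast model of embryonic stem cell origin, hold a GATA1-estrogen receptor fusion that tamoxifen switches on. Both groups received a peptide joined to Tat at 10 μM for 2 h and then tamoxifen for another 28 h, 30 h in all, so both had been induced to mature. The CHD4-APR peptide holds the aliphatic stretch of the aggregation-prone region of CHD4 and the CTRL peptide a run of alanines, with 3 polyA RNA libraries per group. The comparison asks how gene expression differs in differentiating cells given a peptide meant to interfere with the contacts of CHD4 with its NuRD and ChAHP partners. How far those contacts were affected in these cells was not measured here. The growth protocol gives the tamoxifen as 100 nM and the design text as 100 μM. The labels number the replicates but do not say whether they were separate cultures, so the p-values measure only the spread between these libraries, which may be technical. A line of this kind stands for 1 cell source, and no library without peptide was compared here.

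The nuclear pore complex is the channel through which proteins and RNA cross the nuclear envelope. Scaffold nucleoporins build its rings, others anchor it in the membrane, and nucleoporins rich in phenylalanine-glycine repeats fill the channel and bind passing carriers. Karyopherins carry the cargo: importins load it in the cytoplasm and release it when they bind Ran-GTP in the nucleus, and exportins load it together with Ran-GTP and release it outside. In erythroid cells this traffic accompanies the condensation of a nucleus that mammalian erythroblasts finally expel.

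The libraries held 41687482 to 49784177 counts. The 11 erythroid markers matched were all detected (Ahsp was not analysed here) and summed to 71185 to 76503 CPM, counts scaled to a common library total, in the CTRL libraries and 60653 to 64727 in the CHD4-APR libraries. Of these markers 5 fell (45.5%, against 17.8% of all genes tested), the globins Hba-a1, Hba-a2, Hbb-bt and Hbb-bs and the factor Klf1, and 2 rose (18.2%, against 20.4%), Tfrc and Gata1. Counts of Gata1 can include transcripts of the GATA1-estrogen receptor fusion that these cells hold, which were not told apart. After the correction for transcript length and GC content described below, 2 fell, Hbb-bt and Hbb-bs, and 2 rose, Gata1 and Slc4a1, 18.2% of the markers each way beside 16.0% of all genes lower and 11.6% higher, while Hba-a1, Hba-a2, Klf1 and Tfrc did not pass. Megakaryocyte markers summed to 46.7 to 48.8 against 39.9 to 45.7 CPM over 5 genes, with Gp1bb and Ppbp at 0. Mast cell, myeloid and lymphoid markers summed to at most 0.486, 4.67 and 0.604 CPM, with Mcpt8, Mpo, Ly6c2, S100a8 and Cd3e at 0, and all 4 fibroblast markers were at 0. The sum is mostly that of the globins, such as Hbb-bs with a mean of 24751 CPM in the CTRL group and 19739 in the CHD4-APR group. Of the 11 markers, 4 had a log2 fold change above 0 and 7 below. The lower summed level, mostly of globins, moved with every difference described here, and its part in them was not tested. In bulk RNA, fewer cells of a type and less RNA per cell cannot be told apart.

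Transcripts of the transport machinery were more often higher than lower in the CHD4-APR libraries. Of the 50 genes tested, 24 rose (48.0%) and 2 fell (4.00%), the cytoplasmic nucleoporin Aaas and the importin Ipo13, while over all 12722 genes tested 20.4% rose and 17.8% fell. A call here is an adjusted p under 0.05 from edgeR's quasi-likelihood test with Benjamini-Hochberg adjustment over all genes tested, written FDR. The groups did not overlap for 28 genes on the higher and 3 on the lower side, against 25.0% of all genes on each side. The changes were small in the median, with a log2 fold change of 0.12, beside -0.012 for all genes. Among the 50, 2 called changes passed 1.5-fold, those of Nupl1 and Xpo4, beside 538 of all 12722 genes.

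Long transcripts with little GC tended to be higher in the CHD4-APR libraries across the whole transcriptome, and these genes share those features. Their median exonic length was 7181 bases for the receptors and 4894 for the nucleoporins, against 3688 for all genes, and their median GC content was 46.0% and 47.6% against 49.6%. Over the 50 genes, which share libraries and differ in base composition, Spearman's rho of the log2 fold change was 0.48 with length and -0.61 with GC content. Over 12677 genes the values were 0.41 and -0.46. When the trend of each library with length and GC content was removed, 11 of the 50 genes rose and 4 fell, beside 11.6% and 16.0% of all genes, and the median log2 fold change was 0.027. This correction ended the call of 15 of the 24 genes that rose and of both that fell, so the corrected value is given beside each gene called in either fit. Removing the trend with GC content alone, tried after seeing the data, left 23 genes higher and 4 lower, beside 15.4% and 15.8% of all genes. Removing that with length alone left 14 higher and 7 lower, beside 14.3% and 20.9%. Length and GC content move with these differences, and the source of the trend was not tested.

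**Figure D1:**
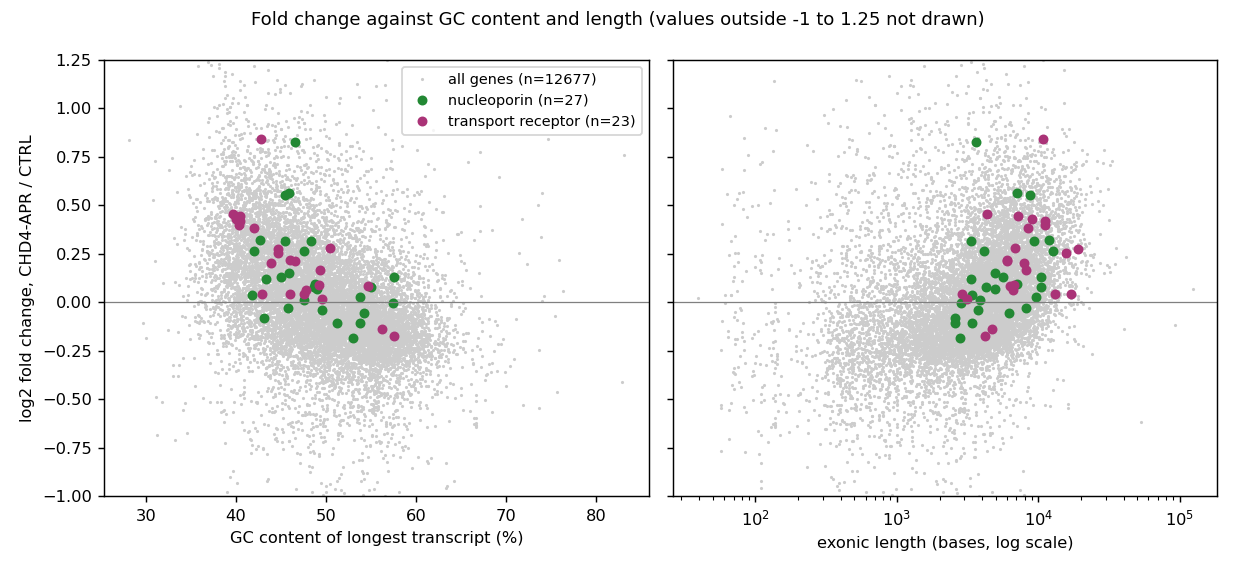
Log2 fold change of CHD4-APR over CTRL against the GC content of the longest transcript (left, percent) and the exonic length (right, bases, log scale). Grey points are all genes with known length and GC content (those beyond the axis limits are not drawn), green points the 27 nucleoporins and purple points the 23 transport receptors, which lie within the falling trend with GC (rho -0.61 over the 50) and the rising trend with length (rho 0.48).

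Rises held in both fits for 9 genes: the nucleoporins Nupl1, Nup153, Nup160, Nup54 and Pom121, the exportins Xpo4, Xpo1 and Xpo5, and the importin alpha Kpna3. The share of all genes tested that kept or lost a rise in this way is not given here, so these counts have no background beside them. The 250 bases before the transcription start were searched on both strands for 5 motifs, in the promoters of RefSeq for GRCm38.p6, which matched 42 of the 52 genes. Nup35, Nup43, Nup85, Nup210l, Seh1l, Kpna1, Kpna3, Kpna6, Xpo4 and Xpo7 were not among them. Below are 4 promoters of genes that rose in both fits, 5′ to 3′ on the gene's strand, with the matches in capitals. They are that of Nupl1, which had the largest change of those with a matched promoter, and the 3 in which a motif was found.
Nupl1 (chr14:60251480-60251729, minus strand): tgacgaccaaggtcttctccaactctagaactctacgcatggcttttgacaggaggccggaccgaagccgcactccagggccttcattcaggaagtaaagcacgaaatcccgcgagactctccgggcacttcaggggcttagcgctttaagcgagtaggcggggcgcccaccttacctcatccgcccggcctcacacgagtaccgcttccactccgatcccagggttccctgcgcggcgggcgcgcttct
Nup54 (chr5:92435200-92435449, minus strand): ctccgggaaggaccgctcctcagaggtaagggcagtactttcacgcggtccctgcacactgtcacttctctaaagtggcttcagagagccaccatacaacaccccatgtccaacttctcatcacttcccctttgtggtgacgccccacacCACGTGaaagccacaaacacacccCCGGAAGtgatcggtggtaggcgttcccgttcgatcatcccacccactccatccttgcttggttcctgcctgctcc
Xpo1 (chr11:23255791-23256040, plus strand): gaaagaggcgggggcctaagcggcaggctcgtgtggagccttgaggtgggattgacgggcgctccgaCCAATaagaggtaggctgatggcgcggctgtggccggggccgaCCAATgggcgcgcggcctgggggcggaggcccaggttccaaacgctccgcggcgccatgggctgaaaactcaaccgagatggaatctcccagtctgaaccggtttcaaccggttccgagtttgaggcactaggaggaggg
Xpo5 (chr17:46202561-46202810, plus strand): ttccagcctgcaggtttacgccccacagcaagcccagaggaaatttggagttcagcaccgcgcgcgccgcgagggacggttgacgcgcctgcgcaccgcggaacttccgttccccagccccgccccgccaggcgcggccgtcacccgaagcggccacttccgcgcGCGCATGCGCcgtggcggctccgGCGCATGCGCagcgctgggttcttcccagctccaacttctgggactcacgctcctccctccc

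The Nupl1 window held none of the motif letters, and neither did those of Nup153, Nup160 and Pom121, which are not shown. That of Nup54 held an E-box (CACGTG) and an ETS motif (CCGGAAG), that of Xpo1 held CCAAT boxes, and that of Xpo5 held the NRF1 core (GCGCATGC) on both strands, in overlap. CCAAT was found in 8 of 19 genes called higher and 13 of the other 23, in 21 of the 42 genes in all and in 41.7% of 8505 promoters of tested genes. The ETS motif was found in 7 of the 42 genes (16.7%, against 18.1% of tested genes), the E-box in 6 (14.3% against 10.1%), the NRF1 core in 4 (9.52% against 5.57%) and the GATA motif AGATAA in 3 (7.14% against 7.21%). A match is a description of these letters only and does not mark a bound site.

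The receptors were then set beside the nucleoporins. Of 23 receptors 14 rose and 1 fell, with a median log2 fold change of 0.21, and of 27 nucleoporins 10 rose and 1 fell, with a median of 0.081. These are 60.9% and 4.35% of the receptors and 37.0% and 3.70% of the nucleoporins, beside 20.4% and 17.8% of all genes. Summed over the receptors, the normalized level was 1831, 1955 and 1931 CPM in the CTRL libraries and 2124, 2164 and 2154 CPM in the CHD4-APR libraries, an increase of 12.6%. Summed over the nucleoporins it was 1688, 1803 and 1759 CPM against 1844, 1917 and 1890 CPM, an increase of 7.65%. Neither sum overlapped between the groups, and the CTRL replicate 1 library was the lowest in both.

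The receptors' median deviation from the CTRL mean lay between -0.068 and 0.046 in the CTRL libraries and between 0.20 and 0.26 on the log2 scale in the CHD4-APR libraries, with no overlap. That of the nucleoporins lay between -0.055 and 0.051 against 0.035 and 0.11, and these ranges overlapped. After the correction the medians of the log2 fold changes were 0.040 for the receptors, with 5 that rose and 2 that fell, and 0.0054 for the nucleoporins, with 6 that rose and 2 that fell. These are 21.7% and 8.70% of the receptors and 22.2% and 7.41% of the nucleoporins, beside 11.6% and 16.0% of all genes. The difference between the classes was not tested. By role, the uncorrected median was highest in the central channel (0.32, 3 genes) and the exportins (0.28, 6 genes) and was below 0 on the cytoplasmic side of the pore (-0.036, 6 genes). After the correction it was 0.24 in the central channel and 0.11 for the exportins, and below 0 on the cytoplasmic side (-0.026), in the inner ring (-0.0062) and the outer ring (-0.011) and for importin beta and the transportins (-0.029).

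**Figure D2:**
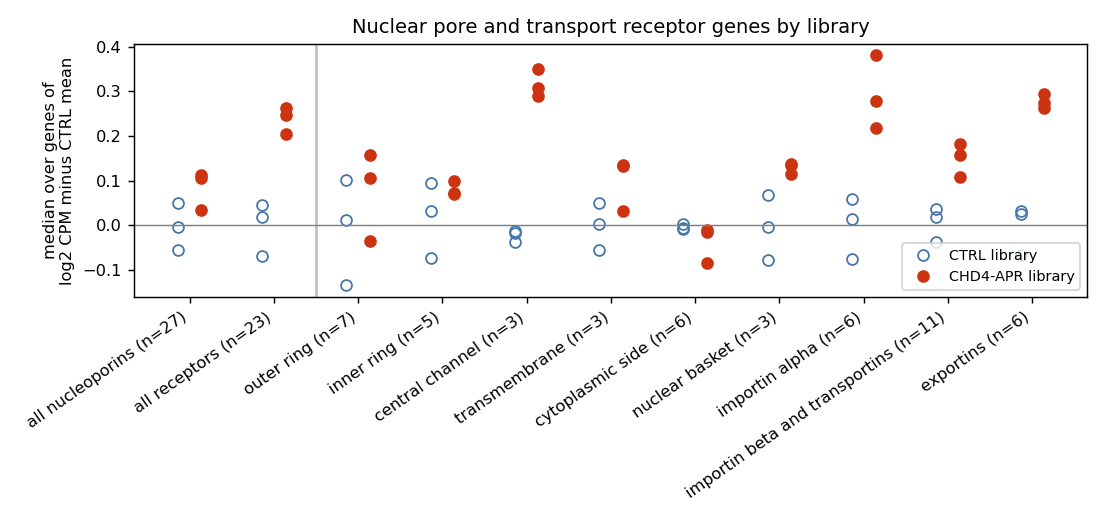
Median over the genes of a class or role of log2 CPM minus the CTRL mean, for each of the 6 libraries (open blue circles, CTRL; filled red circles, CHD4-APR). The receptors do not overlap between the groups (CTRL up to 0.046, CHD4-APR from 0.20), and the nucleoporins do. The cytoplasmic side lies below 0 in all 3 CHD4-APR libraries (-0.084, -0.015 and -0.010). CTRL replicates 1 and 3 also lie below 0 there (-0.0089 and -0.0056).

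The central channel is filled by a complex of Nup62, Nup54 and Nupl1, the mouse gene for Nup58, which carry phenylalanine-glycine repeats. Nupl1 (chr14:60184612-60251431, GRCm38) had 16.9, 21.5 and 18.8 CPM in the CTRL libraries and 33.2, 34.8 and 33.5 CPM in the CHD4-APR libraries, and the groups lay far apart. Its log2 fold change was 0.83 ± 0.076 (SE, n = 3 per group, edgeR FDR = 1.31e-06) and 0.77 after the correction (edgeR FDR = 3.87e-06). Of its exonic bases 9.61% are shared with other genes on the same strand, of which Atp8a2 had 0 to 3 counts per library. Nup54 (chr5:92415540-92435219) had 33.2, 33.4 and 35.5 CPM against 42.1, 41.6 and 43.4 CPM, again without overlap. The log2 fold change came to 0.32 ± 0.054 (SE, edgeR FDR = 0.000285), and 0.24 after the correction.

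Nup62, their partner, did not pass the test before the correction. It had 97.2, 94.2 and 94.4 CPM in the CTRL libraries and 93.3, 95.3 and 96.1 CPM in the CHD4-APR libraries, which overlapped. The log2 fold change was near 0, at -0.0060 ± 0.043 (SE, edgeR FDR = 0.930), and after the correction it was 0.13 and called higher (edgeR FDR = 0.0159). Per exonic length, Nup62 was the most abundant nucleoporin of the CTRL group, ahead of Rae1 by less than the spread, at 33.4 ± 0.589 FPKM (CPM per kilobase of exons, SD, n = 3), against 10.2 ± 0.393 FPKM for Nup54 and 5.29 ± 0.646 FPKM for Nupl1. All 3 channel genes tested rose after the correction, beside 11.6% of all genes.

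The outer ring is made of the Y-shaped scaffold complex. Nup160 (chr2:90677215-90736328), an arm of the Y, had 25.9, 34.6 and 35.02 CPM in the CTRL libraries and 42.3, 51.9 and 46.1 CPM in the CHD4-APR libraries. The groups did not overlap, although CTRL replicate 1 lay well below its group. The log2 fold change was 0.55 ± 0.095 (SE, edgeR FDR = 0.000293), and 0.34 after the correction (edgeR FDR = 0.00538). Seh1l, which joins the Y complex and also a complex of lysosomal nutrient signalling, rose by 0.26 on the log2 scale (edgeR FDR = 0.00654), but its corrected value was 0.079 (edgeR FDR = 0.336).

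The other 5 outer ring genes passed neither test. Of the 7 genes in this role, 28.6% rose, and 14.3% after the correction, beside 20.4% and 11.6% of all genes. Nup107, the most abundant per length at 14.5 ± 0.921 FPKM in the CTRL group, had 53.4, 60.0 and 54.4 CPM against 54.2, 58.5 and 56.7 CPM, and the groups overlapped. With a log2 fold change of 0.012 ± 0.056 (SE, edgeR FDR = 0.890) it did not pass the test. Nup133, Nup37, Nup43 and Nup85 had log2 fold changes of 0.093, 0.12, -0.083 and -0.11. That of Nup133 was 0.19 and called without CTRL replicate 2 (edgeR FDR = 0.032), and 0.013 without CTRL replicate 1 (edgeR FDR = 0.908). Nup133 shares 10.4% of its exonic bases with antisense genes, whose reads a library without strand marks cannot separate.

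In the inner ring, Nup155 and Nup205 rose. They are 40% of the 5 genes in this role, and 0% rose after the correction, beside 20.4% and 11.6% of all genes. Nup155 (chr15:8109273-8161247), a scaffold protein that contacts the pore membrane, had 47.2, 59.0 and 55.9 CPM against 64.1, 70.1 and 68.2 CPM, without overlap. Its log2 fold change of 0.32 ± 0.068 (SE, edgeR FDR = 0.00162) became -0.0062 after the correction (edgeR FDR = 0.947), so its call rests on leaving length and GC content in. Nup205 (chr6:35177421-35247596), a large scaffold protein, had 32.4, 38.8 and 37.7 CPM against 39.9, 49.7 and 46.1 CPM.

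The Nup205 groups lay close together, with CHD4-APR replicate 1 only just above CTRL replicate 2. The log2 fold change reached 0.32 ± 0.079 (SE, edgeR FDR = 0.00462) and 0.16 after the correction (edgeR FDR = 0.114). Nup188, its close relative in the ring and the most abundant of these genes per length (11.6 ± 0.201 FPKM in the CTRL group), had 73.7, 71.3 and 71.9 CPM against 67.8, 72.1 and 68.8 CPM. Its groups overlapped, and its log2 fold change was -0.055 ± 0.047 (SE, edgeR FDR = 0.383). Nup188 shares 12.4% of its exonic bases with 2 other genes, among them Gm28038 on the same strand. Nup93, which ties the ring to the channel, and Nup35, which binds the membrane, had log2 fold changes of 0.081 and 0.039 and passed neither test.

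Among the nucleoporins of the nuclear basket, Nup153 had the largest log2 fold change. Nup153 (chr13:46679905-46727940), a mobile docking protein on the nuclear face, had 41.6, 50.3 and 52.8 CPM in the CTRL libraries and 69.7, 75.3 and 68.7 CPM in the CHD4-APR libraries. All CHD4-APR libraries lay above all CTRL libraries, with a log2 fold change of 0.56 ± 0.071 (SE, edgeR FDR = 1.96e-05) and 0.40 after the correction (edgeR FDR = 0.000158). Nup50, which helps importins release cargo, had a log2 fold change of 0.069 (edgeR FDR = 0.226).

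Tpr, which forms the filaments of the basket, turned its direction with the correction. It had 308, 343 and 325 CPM against 352, 358 and 357 CPM, and its groups did not overlap. The log2 fold change was 0.13 ± 0.045 (SE, edgeR FDR = 0.0337), and after the correction it was -0.12 and called lower (edgeR FDR = 0.0143). The uncorrected call was also lost under upper quartile scaling (edgeR FDR = 0.0609) and without CTRL replicate 1, CTRL replicate 3 or any CHD4-APR replicate (edgeR FDR from 0.0550 to 0.103). At 31.0 ± 1.67 FPKM in the CTRL group, Tpr was the most abundant basket gene per length.

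On the cytoplasmic side, where export complexes are taken apart, genes moved either way. Nup98, which anchors messenger RNA export factors and is also found away from pores, rose by 0.26 on the log2 scale (edgeR FDR = 0.000434), with a corrected value of 0.045 (edgeR FDR = 0.447). Aaas, the gene of the WD-repeat protein ALADIN, had 75.5, 74.1 and 74.3 CPM in the CTRL libraries and 66.2, 65.8 and 64.8 CPM in the CHD4-APR libraries. Its groups were tight and apart, with a log2 fold change of -0.19 ± 0.045 (SE, edgeR FDR = 0.00372), which was -0.096 after the correction (edgeR FDR = 0.0762).

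Rae1, which binds Nup98 in messenger RNA export, was the most abundant of this role per length, at 32.6 ± 1.06 FPKM in the CTRL group. It had 86.2, 80.8 and 83.0 CPM against 75.8, 78.8 and 77.6 CPM, and its groups did not overlap. Its log2 fold change of -0.11 ± 0.046 (SE) did not pass the test (edgeR FDR = 0.0795), but passed without CTRL replicate 2 (edgeR FDR = 0.0498) and under upper quartile scaling (edgeR FDR = 0.0426), and was 0.0050 after the correction. Nup88 and Nup214, partners at the cytoplasmic face, had log2 fold changes of -0.032 and 0.025 with overlapping groups, and Nup88 was called lower after the correction (-0.23, edgeR FDR = 0.000274). Nupl2, which binds the export factor Gle1, had a log2 fold change of -0.040 (edgeR FDR = 0.703).

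Of the membrane anchors, Pom121 rose in both fits. It had 83.2, 81.4 and 86.7 CPM against 91.8, 92.0 and 90.9 CPM, without overlap, and at 15.0 ± 0.479 FPKM in the CTRL group it was the most abundant anchor gene per length. Its log2 fold change was 0.13 ± 0.045 (SE, edgeR FDR = 0.0324) and 0.20 after the correction (edgeR FDR = 0.00118). The uncorrected call was lost without CTRL replicate 2 or any CHD4-APR replicate, under upper quartile scaling and with no filter on low counts (edgeR FDR from 0.0552 to 0.103). Of its exonic bases 11.9% overlap Nsun5 on the opposite strand, which had a log2 fold change of -0.11 (edgeR FDR = 0.340).

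Ndc1 and Nup210, the other anchors tested, had log2 fold changes of 0.15 and 0.079 with overlapping groups. That of Ndc1 was 0.24 and called without CTRL replicate 2 (edgeR FDR = 0.034), and 0.089 without CTRL replicate 1 (edgeR FDR = 0.470).

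**Figure D3:**
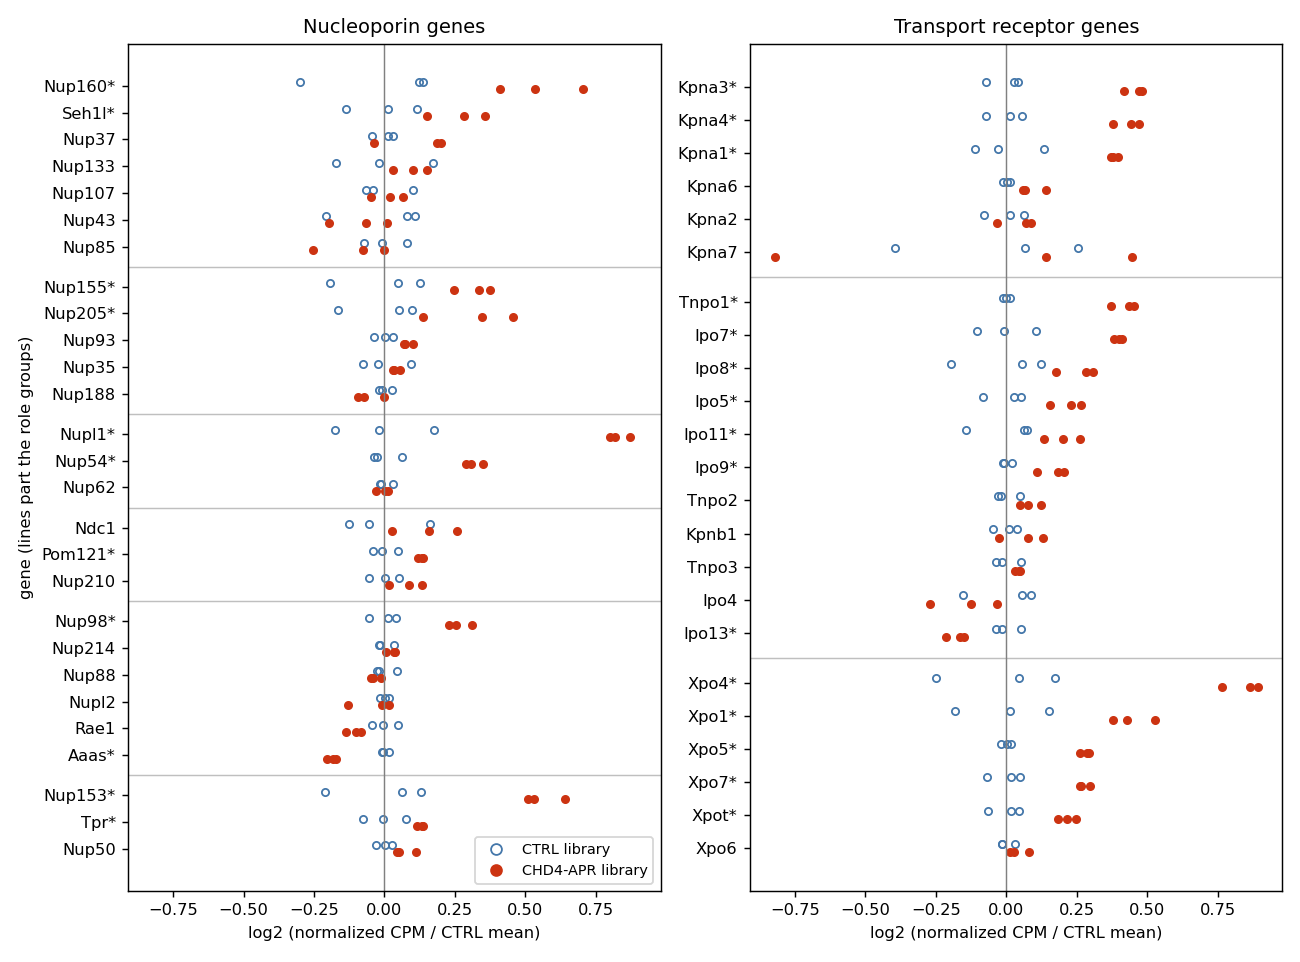
Log2 ratio of each library's normalized CPM to the CTRL mean for the 27 nucleoporins (left) and 23 transport receptors (right), grouped by role and ordered by log2 fold change within it (open blue circles, CTRL; filled red circles, CHD4-APR; an asterisk marks an edgeR FDR under 0.05). Nupl1, Nup153 and Xpo4 stand farthest from their CTRL libraries, Aaas and Ipo13 carry the asterisk on the lower side, and CTRL replicate 1 is the lowest of its group in Nup160 and Nup153.

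Exportins take their cargo out of the nucleus. Of 6 exportins 5 rose, beside 20.4% of all genes, and after the correction 3 rose and 1 fell, beside 11.6% and 16.0% of all genes. Before the correction their summed level was 20.9% higher, at 405, 446 and 438 CPM in the CTRL libraries and 518, 528 and 514 CPM in the CHD4-APR libraries. Xpo4 (chr14:57577521-57665430), which exports the translation factor eIF5A, had 7.91, 9.70 and 10.6 CPM against 17.5, 16.0 and 17.1 CPM. The groups lay far apart, with a log2 fold change of 0.84 ± 0.094 (SE, edgeR FDR = 6.18e-06) and 0.54 after the correction (edgeR FDR = 0.000224). Per length it was nevertheless the least abundant exportin, at 0.876 ± 0.128 FPKM in the CTRL group.

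Xpo1 (chr11:23256041-23298249), the general exporter of proteins with a leucine-rich export signal, had 95.7, 121 and 109 CPM against 141, 156 and 146 CPM. The groups did not overlap, and the log2 fold change was 0.44 ± 0.067 (SE, edgeR FDR = 8.70e-05) and 0.15 after the correction (edgeR FDR = 0.0329). Xpo5, the carrier of microRNA precursors, rose by 0.28 on the log2 scale (edgeR FDR = 0.00101) and by 0.22 after the correction (edgeR FDR = 0.00390).

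Xpot, the exporter of transfer RNA, was the most abundant exportin per length, at 20.1 ± 0.792 FPKM in the CTRL group. It had 116, 125 and 122 CPM against 140, 144 and 137 CPM, without overlap, and a log2 fold change of 0.21 ± 0.045 (SE, edgeR FDR = 0.00143). Its corrected value was 0.081 (edgeR FDR = 0.108). Xpo7, known for its high expression in maturing erythroid cells, rose by 0.27 on the log2 scale (edgeR FDR = 0.000274), but was at -0.075 after the correction (edgeR FDR = 0.175). Xpo6, the exporter of actin, had a log2 fold change of 0.040 with overlapping groups and was called lower after the correction (-0.34, edgeR FDR = 7.29e-05). With exonic lengths of 19005 and 16920 bases, Xpo7 and Xpo6 are the longest of the 50 genes.

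The importin alpha genes encode the adaptors that read classical nuclear localization signals and hand their cargo to importin beta. Of 6 genes 3 rose, beside 20.4% of all genes. After the correction only Kpna3 kept the call, 16.7% of these genes beside 11.6% of all genes. Kpna3 (chr14:61365211-61439874) had 22.5, 24.1 and 24.4 CPM against 31.7, 32.8 and 33.1 CPM, without overlap. This gave a log2 fold change of 0.46 ± 0.060 (SE, edgeR FDR = 2.59e-05) and 0.20 after the correction (edgeR FDR = 0.00868). Its closest relative Kpna4 (chr3:69067149-69127113) had 47.1, 51.4 and 49.97 CPM against 68.7, 67.2 and 64.3 CPM, also without overlap. This gave a log2 fold change of 0.43 ± 0.052 (SE, edgeR FDR = 1.20e-05) and 0.095 after the correction (edgeR FDR = 0.103).

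Kpna1 had 35.5, 41.98 and 37.5 CPM against 49.6, 50.4 and 49.8 CPM, and rose by 0.38 ± 0.061 on the log2 scale (SE, edgeR FDR = 0.000153), with a corrected value of 0.093 (edgeR FDR = 0.173). Its relative Kpna6 had 101, 103 and 102 CPM against 106, 112 and 107 CPM, where the groups lay apart but the log2 fold change of 0.088 ± 0.044 (SE) did not pass (edgeR FDR = 0.126). Kpna2, an adaptor abundant in dividing cells, had the highest level per length of all 50 genes, at 91.2 ± 4.43 FPKM in the CTRL group, ahead of Tnpo2 at 35.8 ± 1.05 FPKM. It had 248, 273 and 264 CPM against 256, 275 and 278 CPM, and its groups overlapped, with a log2 fold change of 0.043 ± 0.048 (SE, edgeR FDR = 0.523). Its pseudogene Kpna2-ps had 25 to 34 counts per library. Kpna7, an importin alpha known from oocytes, was the least abundant of the 50 genes, at 0.278 ± 0.0613 FPKM in the CTRL group, and had a log2 fold change of 0.018 ± 0.31 (SE, edgeR FDR = 0.971).

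Among importin beta and its relatives, which bind cargo directly or through an adaptor, 6 of 11 genes rose and 1 fell, beside 20.4% and 17.8% of all genes, and after the correction 1 rose and 1 fell, beside 11.6% and 16.0%. Tnpo1 (chr13:98839019-98926384), the importer of RNA-binding proteins with a proline-tyrosine signal, had 71.9, 72.5 and 73.2 CPM against 98.2, 99.3 and 93.8 CPM. The groups were tight and apart, with a log2 fold change of 0.42 ± 0.045 (SE, edgeR FDR = 4.36e-06), but the corrected value was 0.059 (edgeR FDR = 0.337). Its relative Tnpo2 had 220, 222 and 233 CPM against 245, 233 and 237 CPM, barely apart. The difference was a log2 fold change of 0.083 ± 0.043 (SE, edgeR FDR = 0.139), and it was called higher after the correction (0.11, edgeR FDR = 0.0317). Tnpo2 shares 11.7% of its exonic bases with other genes.

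Ipo7 (chr7:110018274-110056609), an importer of ribosomal proteins and histones, had 44.9, 51.9 and 48.0 CPM against 63.7, 62.8 and 64.2 CPM, without overlap. The difference was a log2 fold change of 0.40 ± 0.055 (SE, edgeR FDR = 4.64e-05) and 0.038 after the correction (edgeR FDR = 0.582). Its relative Ipo8, known as a carrier of Argonaute and SMAD proteins, had 38.8, 48.5 and 46.3 CPM against 50.2, 55.1 and 54.2 CPM. It rose by 0.25 ± 0.070 on the log2 scale (SE, edgeR FDR = 0.00907), with a corrected value of -0.066 (edgeR FDR = 0.418). Without CTRL replicate 1 the uncorrected value was 0.17, and the call was kept (edgeR FDR = 0.0257).

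Ipo5, Ipo9 and Ipo11, importers of ribosomal proteins, histones and ubiquitin-conjugating enzymes among other cargo, rose by 0.22, 0.17 and 0.20 on the log2 scale and had corrected values of 0.074, 0.055 and -0.029, which did not pass. The call of Ipo11 was also lost without CTRL replicate 1 (0.13, edgeR FDR = 0.0885) and without CHD4-APR replicate 3 (edgeR FDR = 0.0878).

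Ipo13, a receptor that both imports and exports, fell. It had 51.0, 48.6 and 48.0 CPM against 43.9, 44.4 and 42.4 CPM, without overlap, and a log2 fold change of -0.18 ± 0.051 (SE, edgeR FDR = 0.0125). The call was lost without CHD4-APR replicate 3 (edgeR FDR = 0.0724) and after the correction (-0.075, edgeR FDR = 0.245). Kpnb1, importin beta itself, had a log2 fold change of 0.062 (edgeR FDR = 0.327). Ipo4, an importer of histones, had a log2 fold change of -0.14 (edgeR FDR = 0.183), which passed without CTRL replicate 2 (-0.21, edgeR FDR = 0.0381) and was -0.071 without CHD4-APR replicate 3 (edgeR FDR = 0.567). Tnpo3, the importer of SR splicing factors, had 0.041 and was called lower after the correction (-0.18, edgeR FDR = 0.00175).

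**Figure D4:**
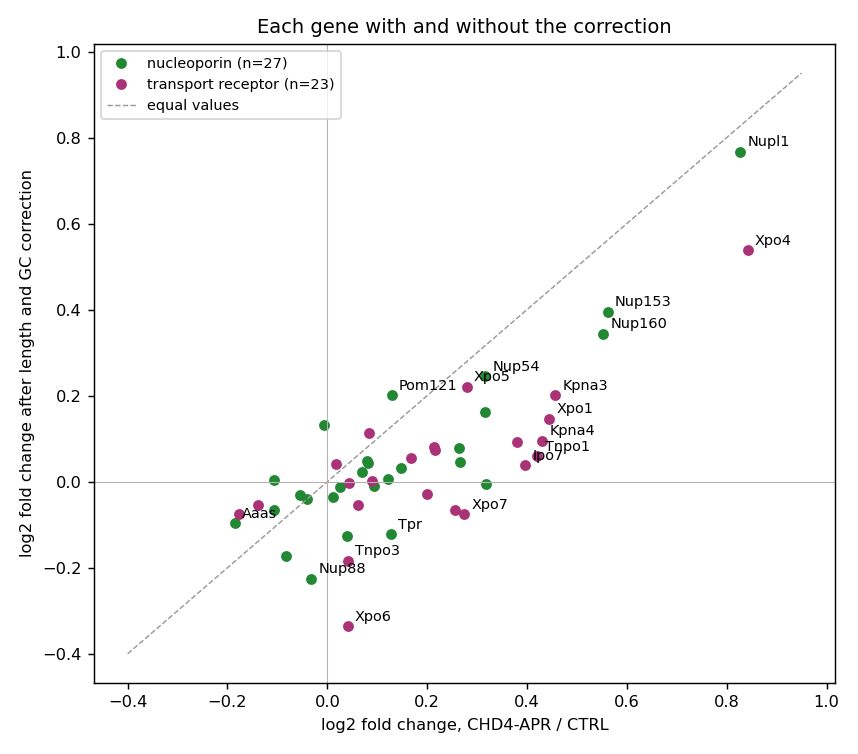
Log2 fold change of each nucleoporin (green, n = 27) and transport receptor (purple, n = 23) as measured (x axis) and after the length and GC correction (y axis), with the dashed line at equal values. Most points lie below the line, Nupl1 moves little (0.83 to 0.77), Tnpo1 and Ipo7 fall close to 0, and Xpo6, Nup88, Tnpo3 and Tpr lie below 0.

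Ratios of close relatives within a library were compared in 4 pairs, with exact two-sided permutation tests that cannot give p below 0.1 at 3 against 3 libraries. The log2 ratio of Tnpo1 to Tnpo2 went from -1.63 ± 0.030 (SD, n = 3) in the CTRL group to -1.30 ± 0.059 in the CHD4-APR group, and that of Kpna1 to Kpna6 from -1.41 ± 0.11 to -1.11 ± 0.032, both without overlap (exact permutation p = 0.1, 0.2 after Benjamini-Hochberg adjustment). The groups overlapped for Ipo7 to Ipo8, with 0.12 ± 0.082 against 0.26 ± 0.078 (exact permutation p = 0.2, adjusted 0.267), and for Kpna3 to Kpna4, with -1.06 ± 0.028 against -1.04 ± 0.079 (exact permutation p = 0.6, adjusted 0.6). After the correction the difference between the log2 fold changes was -0.053 for Tnpo1 and Tnpo2, 0.090 for Kpna1 and Kpna6, 0.10 for Ipo7 and Ipo8 and 0.11 for Kpna3 and Kpna4. These ratios compare counts per gene and not levels per length.

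**Figure D5:**
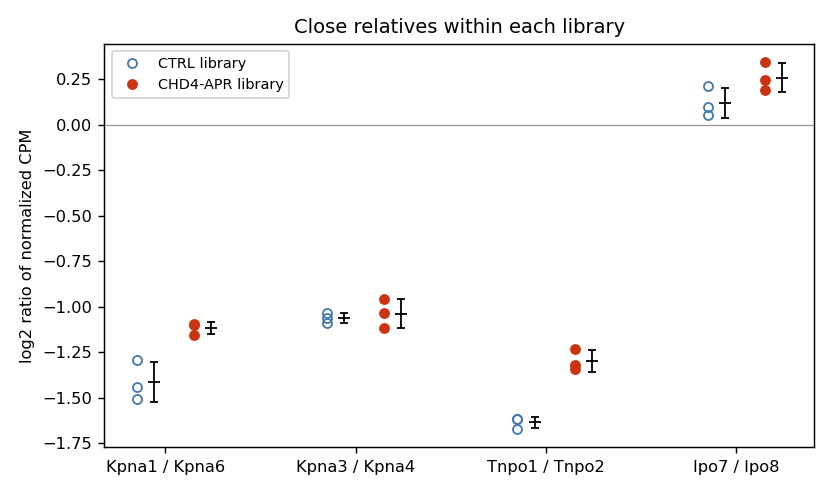
Log2 ratio of normalized CPM of 4 pairs of related receptors in each library (open blue circles, CTRL; filled red circles, CHD4-APR), with the mean and SD of each group as a black bar beside the points. The ratios of Kpna1 to Kpna6 and of Tnpo1 to Tnpo2 do not overlap between the groups, and those of Kpna3 to Kpna4 and of Ipo7 to Ipo8 do.

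Xpo4, Nupl1 and Kpna3, all higher in both fits, lie within 3862 kb of chromosome 14, which holds 6 of the 52 genes. Of the 14 other genes tested in that interval 6 rose and 2 fell, with a median log2 fold change of 0.065, or -0.080 after the correction. Of all 399 other genes tested on the chromosome 96 rose and 66 fell, with a median of -0.00065, or -0.041 after the correction.

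Genes that work with the pore but fall outside the symbol rule were read from the same fit. Of 8 further pore and receptor genes 5 rose (62.5%, against 20.4% of all genes), with a median log2 fold change of 0.30. After the correction 3 rose, against 11.6% of all genes, and the median was 0.022. Ranbp2, the large nucleoporin of the cytoplasmic filaments, had 58.5, 77.6 and 73.6 CPM against 104, 111 and 109 CPM, and rose by 0.63 ± 0.075 on the log2 scale (SE, edgeR FDR = 1.17e-05; 0.27 after the correction). Ranbp6, a relative of Ipo5, rose by 0.45 ± 0.075 (SE, edgeR FDR = 0.000230; 0.22 after the correction).

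The Ran cycle supplies the gradient of Ran-GTP that gives transport its direction, and 6 of its genes were tested. Only Nutf2, which carries Ran into the nucleus, passed the test, at 311, 308 and 299 CPM against 247, 259 and 268 CPM, with a log2 fold change of -0.25 ± 0.043 (SE, edgeR FDR = 0.000337; -0.17 after the correction). That is 16.7% of the 6 genes, near the 17.8% of all genes that fell, and after the correction it was 16.7% beside 16.0%. Ran itself had -0.072 (edgeR FDR = 0.246). Of 21 genes of messenger RNA export 6 rose (28.6%) and 5 fell (23.8%), against 20.4% and 17.8% of all genes, and the median was -0.061. After the correction 5 rose and 6 fell, against 11.6% and 16.0% of all genes. The largest rises before the correction were those of Zc3h11a (0.80, edgeR FDR = 1.15e-05) and Thoc2, the scaffold of the THO complex (0.67, edgeR FDR = 4.36e-06), which were 0.64 and 0.27 after the correction. The largest falls before the correction were those of the helicase Ddx39 (-0.20, edgeR FDR = 0.00264) and of Thoc6 (-0.19, edgeR FDR = 0.0341), which were -0.18 and -0.024 after it, where Thoc6 did not pass (edgeR FDR = 0.81). After the correction the largest falls were those of Thoc7 (-0.52, edgeR FDR = 9.76e-06) and Eny2 (-0.46, edgeR FDR = 0.000462).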

How the data were processed

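PolyA RNA of the 6 libraries was sequenced from a TruSeq RNA v2 kit, which does not mark strand. Per the submitters' processing notes, adaptors were trimmed with Cutadapt, reads aligned to GRCm38 with STAR 2.7.10a and counted with featureCounts, and the authors tested genes with DESeq2. The deposited values are raw counts per Ensembl gene, not normalized; how reads shared by genes were counted is not given in the sources used here. Another 2 columns matched no sample and were not used. GENCODE M21 matched 48349 of 48709 identifiers and gave positions, exonic length (union of exons) and the GC content of the longest transcript. The members and gene lists were chosen with earlier results of these data known.

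Counts were filtered with filterByExpr, scaled by TMM and tested with the quasi-likelihood F-test of edgeR 4.0.16 (R 4.3.3) without a replicate block; SE were derived from the fold change and F. CPM are TMM-normalized and FPKM are those values per kilobase of exons. The correction smoothed each library's log2 CPM (prior count 2) on log2 length and GC content (mgcv 1.9.3) and passed the trend to edgeR as offsets. Values per library are given for the 6 nucleoporins and 6 receptors with the largest called changes, the most abundant gene per length in each role, and close relatives; from other lists the 2 largest called changes per direction are named, and the library values of Aaas and Ipo13, the corrected values of Thoc7 and Eny2 and the neighbours on chromosome 14 were chosen after the values were seen. Alternatives were DESeq2 1.42.0, limma-voom (limma 3.58.1), other scalings and filters, removal of hemoglobin genes, a block, and leaving out each library. The scripts were tested on simulated data. Replicate pairs differed by more than sampling noise.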

Additional observations from a re-analysis of the deposited data

How the results depend on the processing

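Under DESeq2, edgeR with DESeq2 size factors, limma-voom, a minimum of 10 counts in every library and removal of the hemoglobin genes, 24 members rose and 2 fell, as in the report (all genes 19.9% to 21.8% and 17.0% to 18.8%); with upper quartile scaling the counts were 22 and 3 (all genes 19.0% and 20.4%), and with no filter on low counts 23 and 2 (12.7% and 10.6%). After the length and GC correction 11 rose and 4 fell, and the median log2 fold change was 0.0054 for nucleoporins and 0.040 for receptors. Further corrections were chosen after seeing the data: length alone gave 14 and 7 (14.3% and 20.9% of all genes) with medians of 0.011 and 0.043, GC content alone 23 and 4 (15.4% and 15.8%) with medians of 0.058 and 0.13, and the length of the longest transcript 9 and 4 (10.7% and 14.2%) with medians of -0.013 and 0.011, and 3164 genes called in all. The corrections differ in the trend they remove, and the cause of that trend was not tested.

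Same-numbered libraries correlated at 0.070, 0.055 and -0.035 in their deviations from the group means, so the numbers were not taken as pairs. A replicate block left the members at 24 and 2 (all genes 21.5% and 19.5%); with the correction it gave 12 and 4 (13.3% and 18.4%), with medians of 0.0050 and 0.037, and the gene gained was Nup205 (0.16, FDR = 0.0098). Leaving out each replicate in turn gave 21 to 25 members higher and 1 to 4 lower (4 without CTRL replicate 2, 1 without CHD4-APR replicate 3), beside 16.8% to 20.2% and 11.8% to 17.9% of all genes, nucleoporin medians of 0.063 to 0.11, receptor medians of 0.17 (without CTRL replicate 1) to 0.25, and 3703 to 4928 genes called in all.

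Log2 fold changes turned sign under the correction for 15 members, with the value under the correction and a replicate block second: Nup62 (0.13, 0.13), Nup214 (-0.012, -0.012), Rae1 (0.0050, 0.0050), Nup155 (-0.0062, -0.0045), Nup35 (-0.13, -0.13), Tpr (-0.12, -0.12), Nup107 (-0.035, -0.034), Nup133 (-0.011, -0.0059), Xpo6 (-0.34, -0.34), Xpo7 (-0.075, -0.076), Kpna2 (-0.0042, -0.0043), Ipo11 (-0.029, -0.030), Ipo8 (-0.066, -0.064), Kpnb1 (-0.055, -0.056) and Tnpo3 (-0.18, -0.18). Kpna7 turned to -0.049 under limma-voom and -0.010 with the block, and Nup107 to -0.0051 under upper quartile scaling. Leaving out replicates gave -0.015 to 0.0098 for Nup62, -0.021 to 0.065 for Nup107, -0.26 to 0.31 for Kpna7 and -0.065 to 0.0064 for Nupl2, none of them called. At 3 libraries a group the depth leaves Kpna7, near 1 CPM, with the widest error.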

Other observations

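Genes of the nuclear envelope and lamina, which surround the pores, were tested in the same way. Of 14 genes 5 rose (35.7%) and 3 fell (21.4%), against 20.4% and 17.8% of all genes, with a median log2 fold change of 0.034. After the length and GC correction 3 rose and 2 fell, against 11.6% and 16.0% of all genes. Lbr, the lamin B receptor that tethers chromatin to the inner membrane, had 166, 218 and 193 CPM in the CTRL libraries and 259, 288 and 272 CPM in the CHD4-APR libraries, without overlap, and rose by 0.51 ± 0.072 on the log2 scale (SE, edgeR FDR = 5.42e-05; 0.37 after the length and GC correction). Lemd3, an inner membrane protein with a LEM domain, rose by 0.48 ± 0.079 (SE, edgeR FDR = 0.000191; 0.43 after the correction). Banf1, the small protein that bridges DNA and LEM-domain proteins, had 76.0, 73.0 and 70.9 CPM against 56.3, 55.6 and 59.8 CPM, and fell by 0.36 on the log2 scale (SE 0.050, edgeR FDR = 4.72e-05; -0.18 after the correction). Lemd2, a relative of Lemd3, had a log2 fold change of -0.22 ± 0.058 (SE, edgeR FDR = 0.00778) and -0.13 after the correction, which did not pass (edgeR FDR = 0.0561).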
